A study of Mus musculus with 16 samples.

Results

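The response of mouse liver to AICAR was compared between mice with and without hepatic LKB1, using the 8 arrays of saline- and AICAR-treated livers among the 16 arrays of the series. The arrays were taken by the agent and genotype given in the labels, and no measured value entered that choice. All mice were males of the FVB strain aged 10 weeks. They were either wild-type or carried a liver-specific LKB1 knockout (genotype LKB1 lox/lox in the labels, here LKBko), and each genotype received AICAR or its vehicle saline, which gives 4 groups of 2 arrays. The sources used here do not give the driver of Cre, the dose of AICAR or the time between treatment and dissection. The other 8 arrays, from livers treated with mineral oil or CCl4 (CCL4 in the labels) of the same genotypes, entered the estimate of the spread, the check for identical samples and the comparison with CCl4.

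LKB1, encoded by Stk11, is a kinase that phosphorylates and switches on AMPK, the sensor of cellular energy, together with a family of AMPK-related kinases that includes the salt-inducible kinases. AICAR is a nucleoside that cells take up and phosphorylate, through adenosine kinase, to a mimic of AMP that binds AMPK. In hepatocytes AMPK restrains the synthesis of fatty acids and cholesterol, and kinases downstream of LKB1 hold the coactivators of CREB, the factor through which glucagon and cAMP act, outside the nucleus. The comparison asked which genes responded to AICAR differently when LKB1 was missing. It is the interaction, the AICAR minus saline difference in LKBko livers minus that in wild-type livers, and is given here on the log2 scale of the normalized signal.

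On the 8 arrays the median intensity was 172.4 to 191.1 and 12958 to 13730 of 25697 probes were detected. The paired arrays of each group are labelled as biological replicates without an animal being named, so p-values here reflect the spread between arrays, which may be technical. The 2 LKBko saline arrays did not differ beyond noise. Over 848 genes with 2 bright probes, the differences between these arrays correlated with r = 0.026, against 0.49 or more in each of the other 119 pairs of arrays. They were counted as 1 sample, so that group has no spread of its own, and values are still given for both arrays. Stk11 read 10.38 and 10.26 in wild-type saline, 10.32 and 10.33 in wild-type AICAR, 9.08 and 9.30 in LKBko saline and 9.54 and 9.23 in LKBko AICAR. All knockout arrays were thus below all wild-type arrays, and over both agents the knockout minus wild-type difference was -1.04 ± 0.15 (SE, limma adjusted p = 0.0041; 3 against 4 samples). It is not known here whether the Stk11 probe falls inside the deleted part of the gene. Of 13 hepatocyte markers, 12 were bright on all 8 arrays, with a lowest log2 level of 12.97 (Rbp4). The probe for Alb (albumin) read only 5.23 to 6.83, far below those of Ttr and Apoa1, and was not used to judge the tissue.

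AICAR's effect was higher in LKBko than in wild-type livers for genes that included Epha2, Ampd1, Dusp8 and Gp5, and lower for genes that included Acnat2 and Gspt2. Limma called 34 of 11338 features (0.3%) for the interaction at an adjusted p under 0.05, 28 with a higher response in LKBko (0.247%) and 6 with a lower one (0.0529%), and 1039 (9.16%) had an unadjusted p under 0.05. Within the LKBko genotype AICAR changed 136 features (1.2%), 112 up (0.988%) and 24 down (0.212%). In the wild-type it changed 1, the pseudogene Serpina4-ps1 (0.00882%), with 1210 features (10.7%) at an unadjusted p under 0.05. With array weights these counts were 168 in LKBko and 219 in the wild-type, so their order depends on that setting. Of the 34 called features, 32 were also called for AICAR in LKBko, and in 32 the effect in LKBko was the larger one. The 28 higher features had a median effect of -0.09 in the wild-type and 2.26 in LKBko, beside 0.02 and -0.05 over all features. In 26 of these 28 both LKBko AICAR arrays were above the 6 other arrays, as were 13.2% of all features. For all 6 lower features they were below the other arrays, as were 16.5% of all features. These counts rest on the values that made the calls and are no separate evidence.

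**Figure D1:**
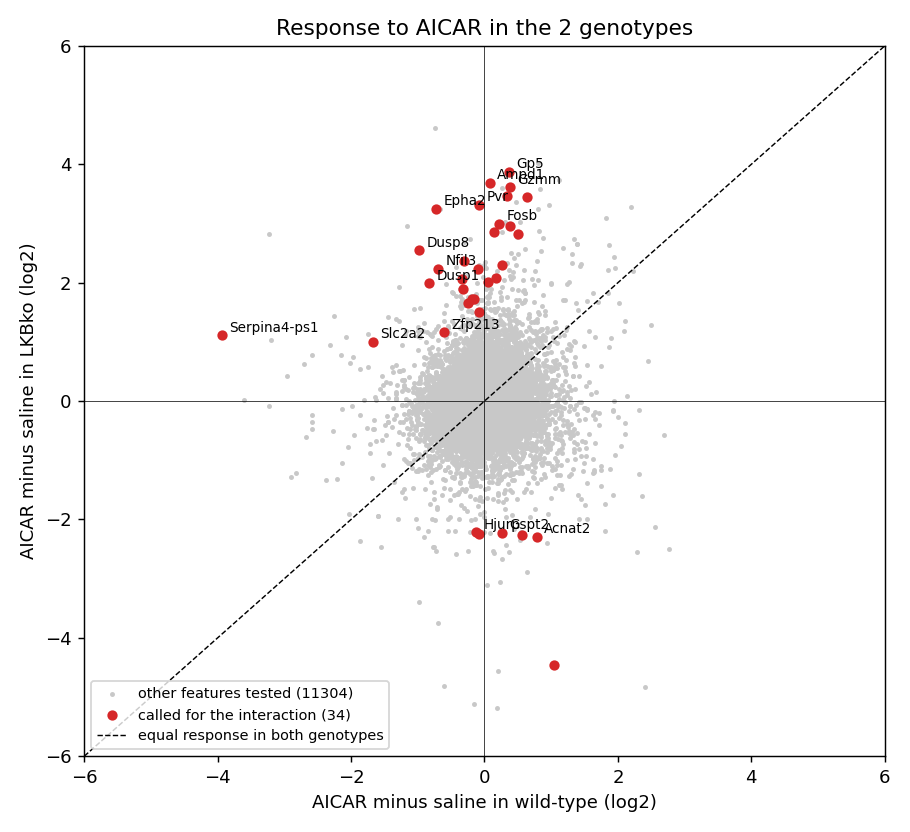
AICAR minus saline in wild-type (x axis) and in LKBko livers (y axis), in log2 units, for the 11338 features tested; red points are the 34 called for the interaction and the dashed line marks an equal response. Most red points stand far above or below 0 on the y axis and near 0 on the x axis, and Serpina4-ps1 and Slc2a2 lie to the left.

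The calls were few enough to depend on single arrays. Without wild-type saline replicate 1 or 2 the interaction gave 2 and 0 calls, without wild-type AICAR replicate 1 or 2 it gave 2 and 0, and without LKBko AICAR replicate 1 or 2 it gave 14 and 11. Leaving out LKBko saline replicate 1 or 2 gave 38 and 36. None of the 34 calls passed in all 8 of these fits, although none changed sign. Counting both LKBko saline arrays as samples gave 118 calls, among them all 34. Without background correction 17 of the 34 interactions were over 1.5 times smaller, as were 16 in the authors' values, and 28 of the 34 were called in each of these settings. As the text names genes in turn, the adjusted p given is that of the fit over all groups.

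**Figure D2:**
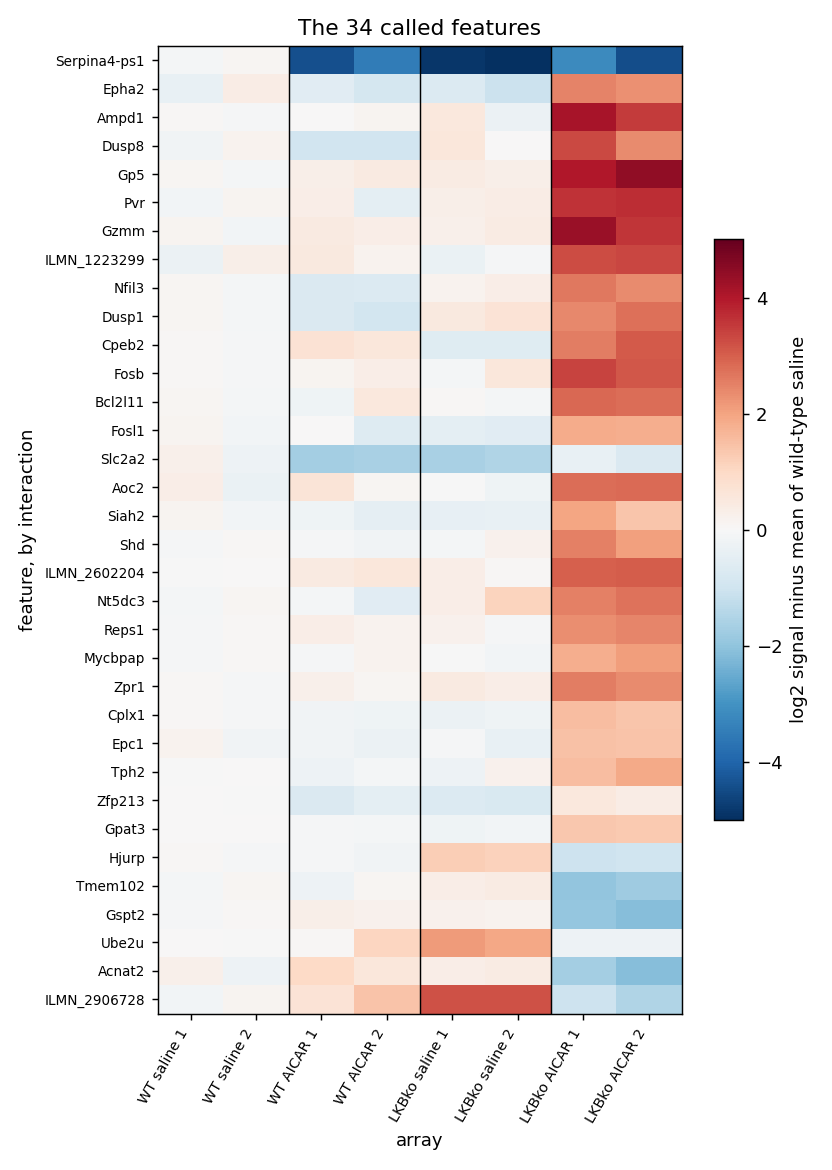
Log2 signal of the 34 called features on each of the 8 arrays, relative to the mean of the 2 wild-type saline arrays, ordered by interaction from highest to lowest. The LKBko AICAR columns are red for most of the upper features and blue for the lower ones; ILMN names are probes without a gene symbol.

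The called genes included the phosphatases Dusp1 and Dusp8 and the Fos family members Fosb and Fosl1. Dusp1, a phosphatase that switches off p38 and JNK, read 12.17 and 11.96 in wild-type saline, 11.33 and 11.13 in wild-type AICAR, 12.54 and 12.74 in LKBko saline and 14.45 and 14.81 in LKBko AICAR. The LKBko AICAR arrays were the highest and the wild-type AICAR arrays the lowest. The interaction was 2.82 ± 0.46 (SE, limma adjusted p = 0.035). Dusp8, a related phosphatase, read 7.32 and 7.65, 6.51 and 6.51, 8.05 and 7.49, and 10.79 and 9.85 in the same order of groups. It also had its lowest values in wild-type AICAR and its highest in LKBko AICAR, with an interaction of 3.53 ± 0.48 (adjusted p = 0.022). Fosb, a Fos protein that pairs with Jun to form AP-1, lay between 4.88 and 5.52 on the 6 other arrays, none of which detected it, and at 8.33 and 8.07 in LKBko AICAR. It was at least 5.91-fold higher in LKBko AICAR than in LKBko saline (adjusted p = 0.0019) and at least 6.34-fold higher than in wild-type AICAR. Such bounds set the group mean against the lowest detected signal of the arrays that did not detect the probe. A fitted log2 value of such a gene is not a bound. The bounds were taken after background correction and were not tested. An adjusted p beside a bound is that of the fitted log2 effect. Fosl1, another Fos protein, read 4.97 to 5.74 on the other 6 arrays and 7.46 and 7.43 in LKBko AICAR, at least 3.49-fold above LKBko saline (interaction 2.67 ± 0.40, adjusted p = 0.03). Without background correction Fosb and Fosl1 gave 1.27 and 1.05.

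Nfil3, a basic leucine zipper repressor that competes with clock output factors, was at 10.70 and 10.52 in wild-type saline, 9.90 and 9.93 in wild-type AICAR, 10.80 and 10.94 in LKBko saline and 13.23 and 12.97 in LKBko AICAR. No groups overlapped, the LKBko AICAR arrays were the highest and the wild-type AICAR arrays the lowest, and the interaction was 2.92 ± 0.33 (adjusted p = 0.016). Bcl2l11, which encodes the pro-apoptotic protein BIM, lay between 8.04 and 8.81 on the other 6 arrays and at 11.14 and 11.06 in LKBko AICAR (interaction 2.71 ± 0.44, adjusted p = 0.035). Its 3 other probes gave 2.68, 2.88 and 1.29. Cpeb2, which binds the 3′ ends of mRNAs and controls their translation, read 6.28 and 6.27 in LKBko saline, 9.46 and 9.97 in LKBko AICAR and 6.82 to 7.59 in the wild-type (2.79 ± 0.46, adjusted p = 0.035).

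**Figure D3:**
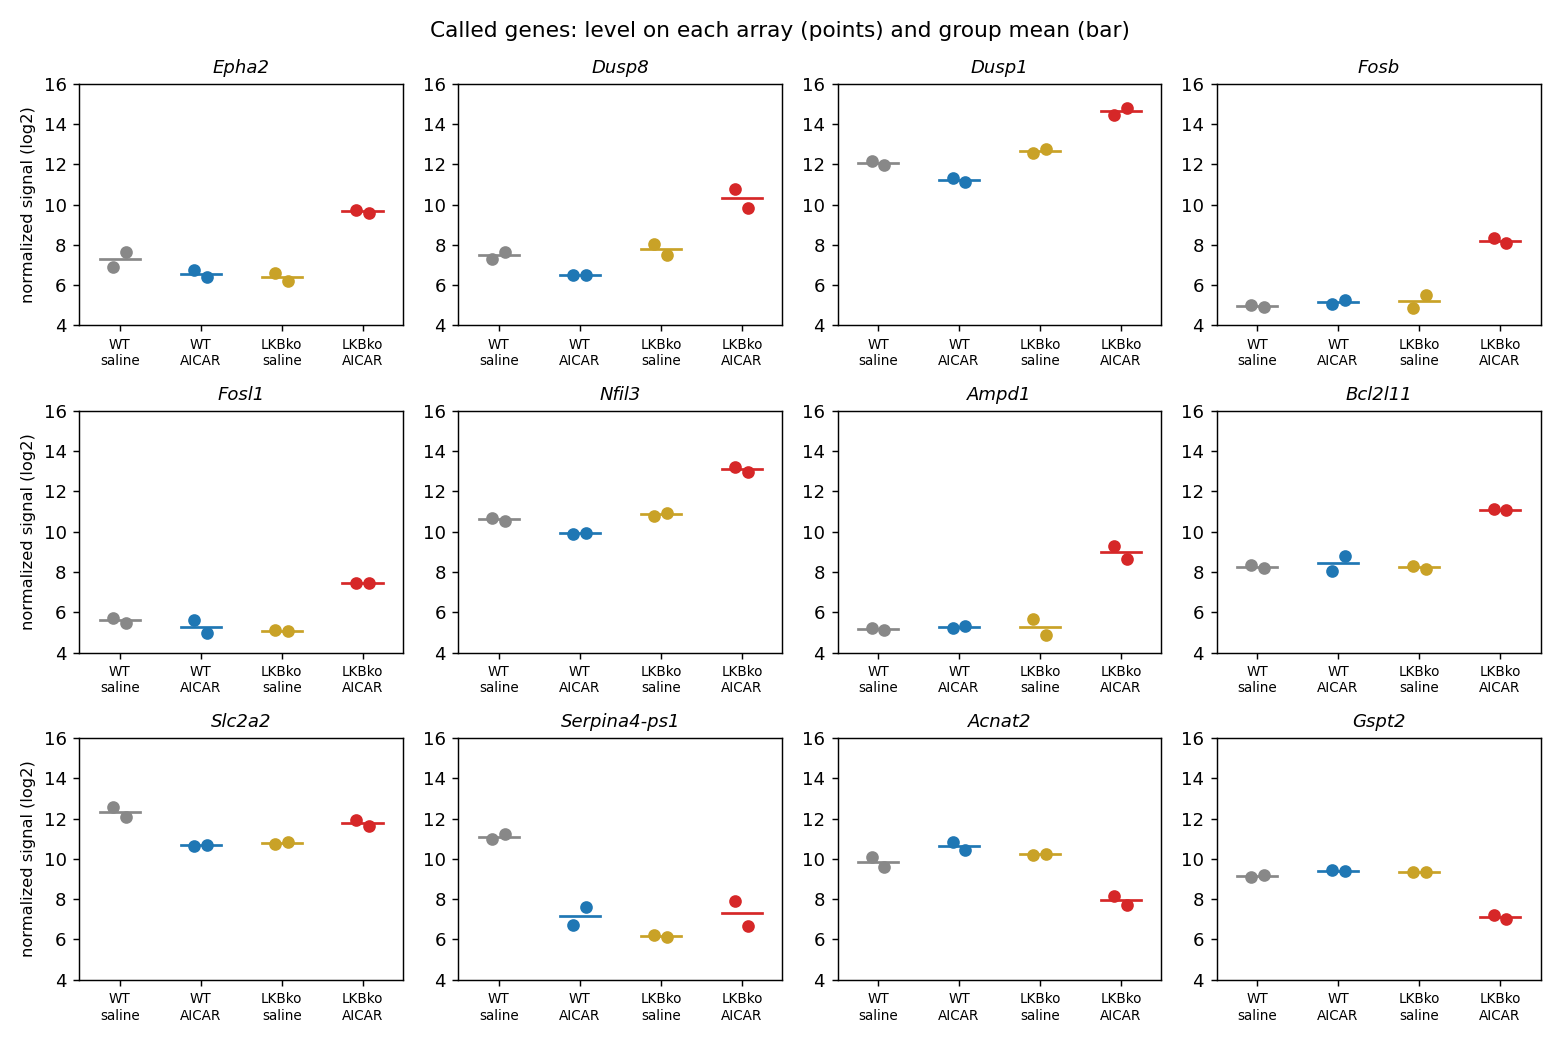
Normalized log2 signal of 12 called genes on each of the 8 arrays (points), by group, with group means as bars; both LKBko saline points come from arrays counted as 1 sample. The LKBko AICAR points are above the other groups in the first 8 panels and below them for Acnat2 and Gspt2, whereas Slc2a2 and Serpina4-ps1 are highest in wild-type saline.

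Epha2, Pvr, Gp5, Gzmm, Shd and Tph2 also had a higher response in LKBko. Epha2, a receptor tyrosine kinase for ephrins, read 6.90 and 7.66 in wild-type saline, 6.73 and 6.39 in wild-type AICAR, 6.60 and 6.22 in LKBko saline and 9.75 and 9.57 in LKBko AICAR. Its interaction of 3.97 ± 0.49 (adjusted p = 0.016) was, after that of Serpina4-ps1, the highest among the called genes. Pvr, an adhesion receptor of the nectin family, was at 6.53 to 7.38 on the 6 other arrays and at 10.62 and 10.73 in LKBko AICAR. Its interaction was 3.39 ± 0.59 (adjusted p = 0.045). This call was lost with median centring, without a probe filter, with the stricter filter and with a replicate block. Gp5, which encodes a glycoprotein of platelets, read 5.50 to 6.04 elsewhere and 9.62 and 10.04 in LKBko AICAR (3.50 ± 0.35, adjusted p = 0.0098). Among 7 other platelet and megakaryocyte markers, a list added after the data were seen, 2 had an interaction above 0 and 5 below, with a median of -0.37, and Pf4 and Ppbp gave -1.35 and -1.33. Gzmm, a granzyme of killer lymphocytes, read 5.38 to 5.97 elsewhere and 9.84 and 9.08 in LKBko AICAR (3.22 ± 0.54, adjusted p = 0.039). For 10 lymphocyte markers the median was -0.32, with 3 above 0 and 0 called. Shd, an adaptor with an SH2 domain, and Tph2, the enzyme of serotonin synthesis in neurons, were detected only in LKBko AICAR among the 4 groups, at least 3.04-fold and 1.95-fold above LKBko saline (adjusted p = 0.0019 and 0.0046). Without background correction neither was called, at 0.93 and 0.77 (adjusted p = 0.07 and 0.12).

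Of the metabolic genes, Ampd1 and Slc2a2 differed in how they moved. Ampd1 encodes the AMP deaminase of skeletal muscle, which turns AMP into IMP. It read 4.88 to 5.68 on the other arrays, of which 1 detected it, and 9.28 and 8.66 in LKBko AICAR, with an interaction of 3.60 ± 0.44 (adjusted p = 0.016) and 3.02 from another probe, and of 1.87 without background correction. Over 5 skeletal muscle markers, a list added after the data were seen, the summed linear signal was 303 to 320 in wild-type saline, 277 to 298 in wild-type AICAR, 387 to 414 in LKBko saline and 348 to 382 in LKBko AICAR. Their interaction was above 0 for 3 of 5, with a median of 0.32 and 0 called. The other measured genes of purine uptake, synthesis and breakdown held no further call. Of 28 such genes 16 were above 0 and 12 below, with a median of 0.05. Adk, the adenosine kinase that phosphorylates AICAR, read 14.28 to 14.69 on all 8 arrays (interaction 0.05, adjusted p = 0.97), and the nucleoside transporter Slc29a1 read 10.75 to 11.37 (0.09, adjusted p = 0.97).

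Slc2a2, the glucose transporter GLUT2 of hepatocytes, read 12.59 and 12.08 in wild-type saline, 10.64 and 10.70 in wild-type AICAR, 10.73 and 10.85 in LKBko saline and 11.95 and 11.63 in LKBko AICAR. Its interaction of 2.67 ± 0.45 (adjusted p = 0.039) combined a wild-type effect of -1.67 (adjusted p = 0.11) with an LKBko effect of 1.00 (adjusted p = 0.25). Each of the 2 other Slc2a2 probes gave only 0.74. Serpina4-ps1, annotated as a pseudogene of the serpin family, read 11.01 and 11.21 in wild-type saline against 6.73 and 7.61 in wild-type AICAR, 6.24 and 6.11 in LKBko saline and 7.91 and 6.67 in LKBko AICAR. In the wild-type it fell by 3.94 on the log2 scale (SE 0.45, adjusted p = 0.034), and the wild-type AICAR arrays overlapped with those of LKBko AICAR. In LKBko, where saline levels were already low, the AICAR effect was 1.11 (SE 0.55, adjusted p = 0.46) and was not called. The interaction of 5.05 ± 0.71 (adjusted p = 0.022) thus came mostly from the fall in the wild-type. Whether this probe also binds related serpin transcripts was not tested. Aoc2, an amine oxidase, read 5.06 to 6.05 on the other 6 arrays and 8.19 and 8.23 in LKBko AICAR, at least 5.94-fold above LKBko saline (adjusted p = 0.0027), and its 2 other probes gave 1.69 and 2.32. Reps1, an endocytic adaptor, and Zpr1, a zinc finger protein, had interactions of 2.04 ± 0.26 and 1.92 ± 0.28 (adjusted p = 0.018 and 0.027).

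A lower response in LKBko was called for 6 features, whereas the 8 arrays fitted alone gave 20 higher and 23 lower. Acnat2, a peroxisomal acyltransferase that joins fatty acids to amino acids, read 10.11 and 9.60 in wild-type saline, 10.85 and 10.43 in wild-type AICAR, 10.18 and 10.26 in LKBko saline and 8.16 and 7.71 in LKBko AICAR. The interaction was -3.07 ± 0.43 (adjusted p = 0.022), and another Acnat2 probe gave -2.51. Gspt2, a release factor of translation, stood at 9.10 to 9.46 on the other 6 arrays and at 7.21 and 7.02 in LKBko AICAR (-2.49 ± 0.30, adjusted p = 0.016). Hjurp, the chaperone of the centromeric histone, fell from 11.50 and 11.43 in LKBko saline to 9.23 and 9.27 (-2.10 ± 0.34, adjusted p = 0.035), while wild-type arrays read 10.10 to 10.35. Ube2u, a ubiquitin-conjugating enzyme, was at least 2.52-fold lower in LKBko AICAR, where it was not detected, than in LKBko saline at 7.12 and 6.89 (adjusted p = 0.014). Wild-type saline arrays did not detect Ube2u either (4.99 and 4.96), and wild-type AICAR arrays read 5.02 and 6.04. LKBko livers given mineral oil had a mean of 4.86. Among the saline and AICAR groups, both arrays detected Ube2u only in LKBko saline, whose arrays were averaged. Its lower response rests on that baseline, and its rank below wild-type saline is among undetected signals. Tmem102 read 7.38 to 8.02 elsewhere and 5.63 and 5.84 in LKBko AICAR (-2.18 ± 0.34, adjusted p = 0.035). Without background correction Ube2u and Tmem102 were not called, at -0.88 and -0.99 (adjusted p = 0.23 and 0.094). Outside the rule for named genes, and so named after their values were seen, were Siah2 (interaction 2.40), Nt5dc3 (2.22), Mycbpap (1.96), Cplx1 (1.92), Epc1 (1.90), Zfp213 (1.76) and Gpat3 (1.58), and 3 probes without a symbol, ILMN_1223299 (3.13), ILMN_2602204 (2.31) and ILMN_2906728 (-5.51). Of these, Cplx1 and Mycbpap were not called without background correction (0.74 and 0.73, adjusted p = 0.22 and 0.18). For 11 called genes another probe was kept, and all 15 such probes had the sign of the one used.

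Promoters are shown because Dusp1 is a known target of CREB, and the motifs were chosen after the called genes were known. RefSeq (GRCm38.p6) promoter entries were matched for 22 of the 31 called genes with a symbol, and the 250 bases before each start were searched on both strands. The full cAMP response element TGACGTCA stood before 4 of the 18 higher genes with an entry (22.2%), namely Epha2, Dusp8, Dusp1 and Mycbpap, and before 2.79% of 8464 tested genes. Dusp1 prompted the choice of this motif, so its own match is no support. Mycbpap was detected only in LKBko AICAR among the 4 groups. Without background correction it was not called (adjusted p = 0.18). The full element stood before 0 of 4 lower genes. Its shorter form TGACG, which the full element contains, stood before 9 of the 18 and 28.6% of tested genes. The AP-1 site TGACTCA and the amino acid response core TGATGCAA stood before 0 of the 18, and before 4.73% and 0.768% of tested genes. The E-box CACGTG stood before 2 of the 18 and 9.71% of tested genes. A match describes the letters and is not a measured site. The sequences are those of the 2 highest and 2 lowest called genes where an entry existed (of 2 for Acnat2, 1 is shown), and of the genes with the full element. Capitals mark that element, or its shorter form, and all sequences run 5′ to 3′ on the gene's strand, ending at the base before the start or, for Dusp1, within the promoter.
Epha2 (chr4:141300971-141301220, + strand): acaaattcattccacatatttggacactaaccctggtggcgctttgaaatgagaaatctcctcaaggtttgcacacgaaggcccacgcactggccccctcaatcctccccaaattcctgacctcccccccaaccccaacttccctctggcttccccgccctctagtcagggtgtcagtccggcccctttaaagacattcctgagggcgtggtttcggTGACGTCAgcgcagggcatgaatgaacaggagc
Dusp8 (chr7:142095285-142095534, - strand): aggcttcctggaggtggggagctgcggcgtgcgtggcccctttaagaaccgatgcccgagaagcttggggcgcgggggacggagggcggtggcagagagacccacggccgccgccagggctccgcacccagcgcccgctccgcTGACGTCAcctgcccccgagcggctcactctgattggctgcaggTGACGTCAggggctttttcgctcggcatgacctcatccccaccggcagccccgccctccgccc
Dusp1 (chr17:26508583-26508640, - strand): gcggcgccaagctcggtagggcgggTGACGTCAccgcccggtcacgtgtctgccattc
Mycbpap (chr11:94521503-94521549, - strand): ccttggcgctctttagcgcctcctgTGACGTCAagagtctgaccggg
Acnat2 (chr4:49408152-49408401, - strand): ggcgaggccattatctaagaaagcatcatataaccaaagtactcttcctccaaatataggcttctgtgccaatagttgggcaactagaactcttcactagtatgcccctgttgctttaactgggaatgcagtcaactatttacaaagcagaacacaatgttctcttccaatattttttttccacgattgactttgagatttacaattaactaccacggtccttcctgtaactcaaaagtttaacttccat
Ube2u (chr4:100478617-100478866, + strand): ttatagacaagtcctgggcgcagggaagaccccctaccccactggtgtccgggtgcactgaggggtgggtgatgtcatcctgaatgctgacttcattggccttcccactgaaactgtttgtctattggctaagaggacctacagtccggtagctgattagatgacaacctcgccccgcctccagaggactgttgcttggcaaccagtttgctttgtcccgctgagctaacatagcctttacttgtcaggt

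Dusp8 held the full element 2 times, 107 and 63 bases before its start, Epha2 once at 33 bases, Dusp1 at 143 and Mycbpap at 22. Read the other way, these 4 called genes were 1.69% of all 236 tested genes with the full element. Of the 8228 without it, 0.17% were called higher for the interaction. This is the same count as that over the called genes and is no separate evidence. The AICAR effect in LKBko was called higher for 6 of the 236 genes (2.54%) against 0.912%. These were the same 4 genes, Maff (2.78) and Ccnl1 (1.92), so this count is not separate either. The median interaction of the 236 genes was -0.01, beside -0.04 for those without the element.

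Genes known to answer cAMP and CREB had interactions mostly above 0. Of 20 measured, 19 were above 0 and 1 below, with a median of 0.93 (wild-type -0.03, LKBko 1.07), while 47.1% of all features were above 0 and their median was -0.04. Dusp1 was the only one called over all features, and 10 had an unadjusted p under 0.05, all higher, as had 4.74% of all features. Sik1, a salt-inducible kinase that LKB1 activates and CREB induces, read 6.49 to 6.91 in the wild-type, 8.99 and 8.67 in LKBko saline and 10.49 and 10.57 in LKBko AICAR (interaction 1.73 ± 0.72, adjusted p = 0.5). Its groups were ordered by genotype first and by AICAR within LKBko. Pde4d, a phosphodiesterase of cAMP named after its values were seen, read 5.82 to 6.79 on the other arrays and 8.23 and 8.06 in LKBko AICAR (2.20, adjusted p = 0.094), and was called in LKBko alone (1.63, adjusted p = 0.047).

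Immediate early and AP-1 genes also had interactions mostly above 0. The list shares Dusp1, Fos, Junb and Atf3 with the cAMP list, so the 2 counts are not separate. Of 23 measured genes 21 were above 0, as were 47.1% of all features, with a median of 0.93 (wild-type 0.37, LKBko 1.42). The interaction was called for Fosb, Fosl1 and Dusp1, and 0.247% of all features were called higher for it. The LKBko effect was called for these and for Maff (2.78, adjusted p = 0.0098), Klf4 (2.59, adjusted p = 0.049) and Zfp36 (1.84, adjusted p = 0.026). Of all features 0.988% were called higher in LKBko. In the wild-type 0 members were called. Atf3, an early stress factor, read 7.91 and 7.70, 8.85 and 9.01, 8.36 and 8.24, and 11.91 and 12.17 in wild-type saline, wild-type AICAR, LKBko saline and LKBko AICAR. Its interaction of 2.61 did not pass (adjusted p = 0.53). Myc was the lowest member at -1.11 (adjusted p = 0.75).

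Of 18 clock genes 12 had an interaction above 0, with a median of 0.76 (wild-type -0.39, LKBko 0.34). Nfil3 was the only call, and 6 had an unadjusted p under 0.05, all above 0, as had 4.74% of all features. Cry2, a clock repressor, gave 1.95 (adjusted p = 0.13) and was called in LKBko (1.66, adjusted p = 0.037). Arntl, which drives the clock, gave -1.24 (adjusted p = 0.58). The sources do not give the hour of dissection, and its part was not tested.

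Of 29 measured genes of the ATF4 and amino acid stress response, 19 had an interaction above 0, with a median of 0.40. None was called, and 7 had an unadjusted p under 0.05, all above 0, as had 4.74% of all features. These 7 include Atf3, which is also in the cAMP and immediate early lists, so the counts are not separate. Chac1, which degrades glutathione, read 8.58 and 8.55 in wild-type saline, 7.60 and 8.05 in wild-type AICAR, 6.84 and 7.22 in LKBko saline and 12.08 and 11.20 in LKBko AICAR. With an interaction of 5.35 ± 1.02 it exceeded every called feature in size, apart from ILMN_2906728, yet its adjusted p was 0.077. AICAR raised it in LKBko by 4.61 (adjusted p = 0.019). Atf4 itself gave 1.62 ± 0.32 (adjusted p = 0.1) and was called in LKBko (1.67, adjusted p = 0.0098). Ddit3 and Nupr1, stress factors of the same list named after their values were seen, gave -1.63 and -1.90 (adjusted p = 0.59 and 0.74). In the unfolded protein response, 12 of 22 genes were above 0 (median 0.10), and 0 interactions were called. The AICAR effect was called higher for 3 members in LKBko, as for 0.988% of all features, and for 0 in the wild-type. Ern1 and Herpud1 had interactions of 1.25 ± 0.29 and 1.42 ± 0.49 (adjusted p = 0.15 and 0.37). Ern1, which LKBko saline arrays did not detect, was called in LKBko (1.15, adjusted p = 0.038). Hspa5, the main chaperone of the endoplasmic reticulum, read 7.80 and 7.36 in wild-type saline, 9.49 and 9.42 in wild-type AICAR, 7.72 and 7.51 in LKBko saline and 9.91 and 10.59 in LKBko AICAR. Both AICAR groups were above both saline groups, and the interaction was 0.77 (adjusted p = 0.62).

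The cholesterol, fatty acid and gluconeogenesis lists held 0 called interactions. All 17 cholesterol synthesis genes had an interaction above 0, with a median of 0.85 (wild-type -0.30, LKBko 0.40), and 0 were called or had an unadjusted p under 0.05. Sqle and Dhcr7, enzymes of the late pathway, gave 1.60 ± 1.04 and 1.42 ± 0.68 (adjusted p = 0.68 and 0.57). Fatty acid synthesis and triglyceride assembly had 26 of 33 genes above 0 (median 0.56), 0 of them called; Gpam, the mitochondrial acyltransferase that starts glycerolipid synthesis, gave 1.58 ± 0.59 (adjusted p = 0.44) and Srebf1 1.49 ± 1.04 (adjusted p = 0.7). In gluconeogenesis 17 of 21 genes were above 0 (median 0.15), 0 called. G6pc, which releases free glucose, read 13.02 and 12.08 in wild-type saline, 10.48 and 11.75 in wild-type AICAR, 14.34 and 14.30 in LKBko saline and 15.73 and 15.76 in LKBko AICAR. Its arrays separated by genotype, and the interaction was 2.86 ± 0.89 (adjusted p = 0.33). Pck1, the entry enzyme of the pathway, gave 1.72 ± 0.96 (adjusted p = 0.62) and the coactivator Ppargc1a 0.52 ± 1.10 (adjusted p = 0.92), whose wild-type saline arrays lay far apart at 7.34 and 5.11. Fgf21, a hepatic hormone of fasting and stress, read 6.19 to 7.30 in the wild-type, 7.76 and 7.73 in LKBko saline and a mean of 10.98 in LKBko AICAR (3.91 ± 1.14, adjusted p = 0.28).

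The subunits of AMPK and the partners of LKB1 showed no called interaction, with 6 of 9 above 0 and a median of 0.13. Prkaa2, a catalytic subunit of AMPK, read 7.62 to 8.16 on all 8 arrays (0.15 ± 0.43, adjusted p = 0.95), and Prkab1, a scaffold subunit, 10.83 to 11.12 (0.09 ± 0.30, adjusted p = 0.95). Prkaa1 is not analysed here. Cyp17a1, a steroid hydroxylase, read at most 10.22 in the wild-type and at least 12.93 in LKBko, with an interaction of -0.21 (adjusted p = 0.97). Nnmt, which methylates nicotinamide, and Nr1i3, the receptor CAR, gave -0.52 and -0.56 (adjusted p = 0.9 and 0.76). In all, 5 of 41 gene lists held a called member, where 0.3% of all features were called. Dusp1 was a called member of both the cAMP and the immediate early lists, so the lists are not separate. How many lists would hold a call at that share was not tested.

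**Figure D4:**
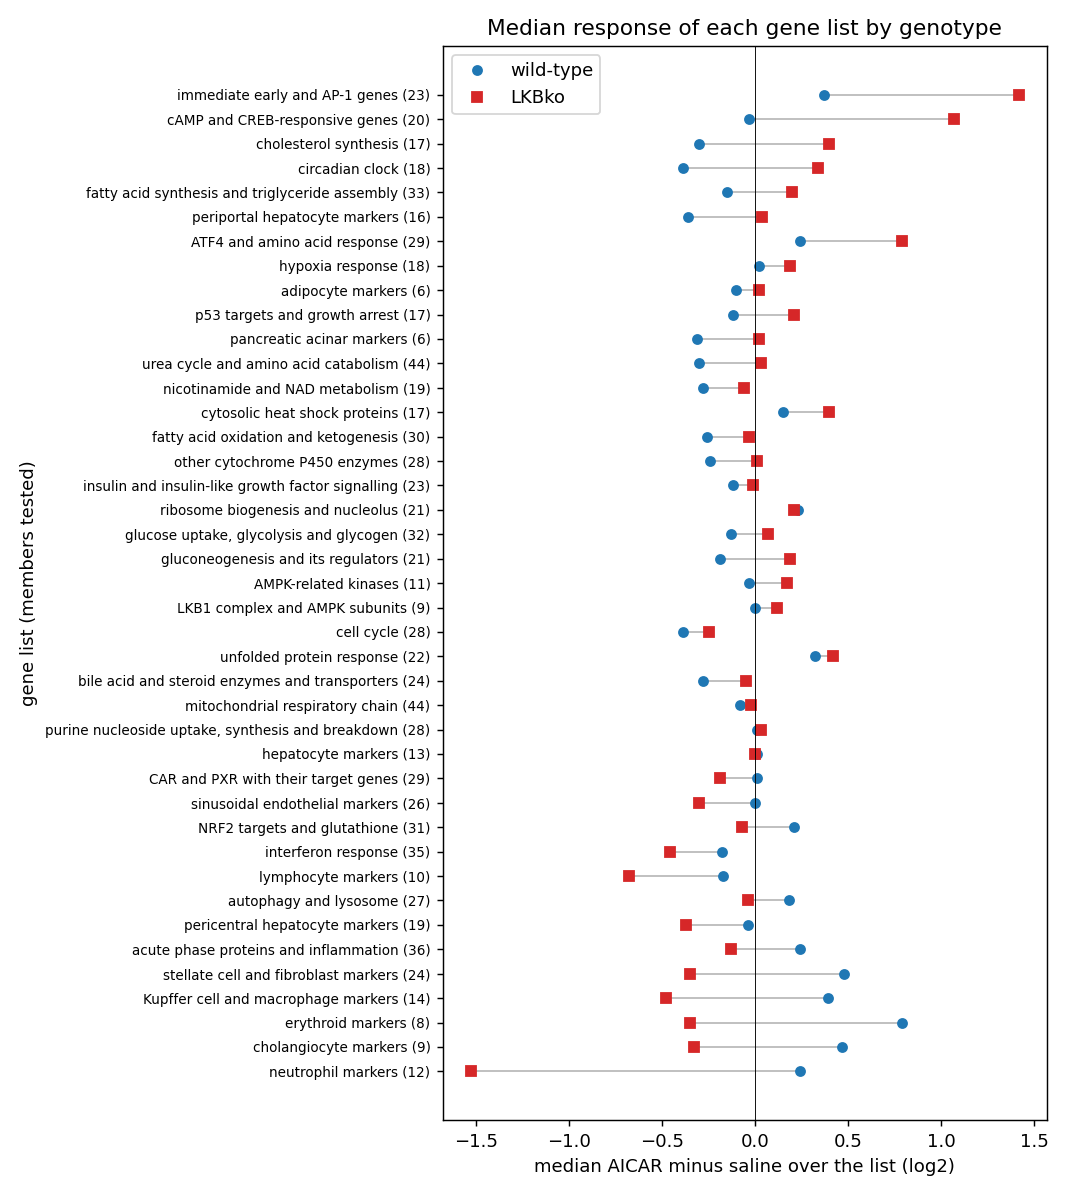
Median AICAR minus saline difference (log2) over the members of each gene list in wild-type (circles) and LKBko livers (squares), ordered by the median interaction; the number of members tested is in brackets. The immediate early and cAMP lists reach 1.42 and 1.07 in LKBko, and the neutrophil list has the lowest LKBko value.

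Summed levels of blood and other non-hepatocyte markers differed between the groups, and in whole liver fewer cells of a type and less RNA per cell cannot be told apart. All 12 neutrophil markers had an interaction below 0, with a median of -1.60 and 0 called. Their summed linear signal was 21800 to 34300 in wild-type saline, 65200 to 69600 in wild-type AICAR, 27500 to 27700 in LKBko saline and 8300 to 9470 in LKBko AICAR. All 12 were detected on at least 1 of the 8 arrays. Lcn2, which hepatocytes also make, was most of the sum on every array except LKBko AICAR replicate 1. It read 14.05 and 14.74 in wild-type saline, 15.92 and 15.88 in wild-type AICAR, 14.12 and 14.18 in LKBko saline and 11.88 and 12.89 in LKBko AICAR (interaction -3.27 ± 0.99, adjusted p = 0.31). The rise of the sum in wild-type AICAR is thus largely that of Lcn2. Kupffer cell markers summed to 73100 to 73400 in wild-type saline, 89200 to 102000 in wild-type AICAR, 64400 to 65600 in LKBko saline and 46600 to 47300 in LKBko AICAR, with 2 of 14 interactions above 0 (median -0.80). Stellate cell markers had 4 of 24 above 0 (median -0.77). Of 8 erythroid markers 4 were above 0 and 4 below, with a median of -0.81 and 0 called, and the hemoglobin genes Hba-a1 and Hbb-bt gave -2.64 and -2.36 (adjusted p = 0.39 and 0.31). Erythroid markers summed to 19400 to 27100 in wild-type saline, 47300 to 51900 in wild-type AICAR, 29800 to 30500 in LKBko saline and 12400 to 13000 in LKBko AICAR. On all 8 arrays most of this sum was Hba-a1, so it does not describe the list as a set. Hba-a1 read 15.57 and 15.42 in wild-type AICAR and 13.28 on both LKBko AICAR arrays. Hepatocyte markers summed to 451000 to 483000 in all 4 groups, with a median of -0.00. Apart from Alb these were bright probes, and quantile normalization gives the brightest probes of every array the same range. This limits how far their sum could differ. The part of these markers in the 34 calls was not tested.

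The interaction was set against that of CCl4, a liver toxicant given in mineral oil, to ask whether the difference between genotypes was larger for AICAR. For the CCl4 by genotype interaction limma called 0 features, with 463 (4.08%) at an unadjusted p under 0.05. The AICAR interaction minus the CCl4 interaction also gave 0 calls, with 678 features (5.98%) at an unadjusted p under 0.05. All 34 called features had the sign of the AICAR interaction there and an unadjusted p under 0.05, but both comparisons contain the same AICAR and saline samples. Epha2 gave 3.97 for AICAR and -0.84 for CCl4, Dusp8 3.53 and -0.88, Nfil3 2.92 and 0.58, Acnat2 -3.07 and -1.07, and Gp5 3.50 and 0.78.

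**Figure D5:**
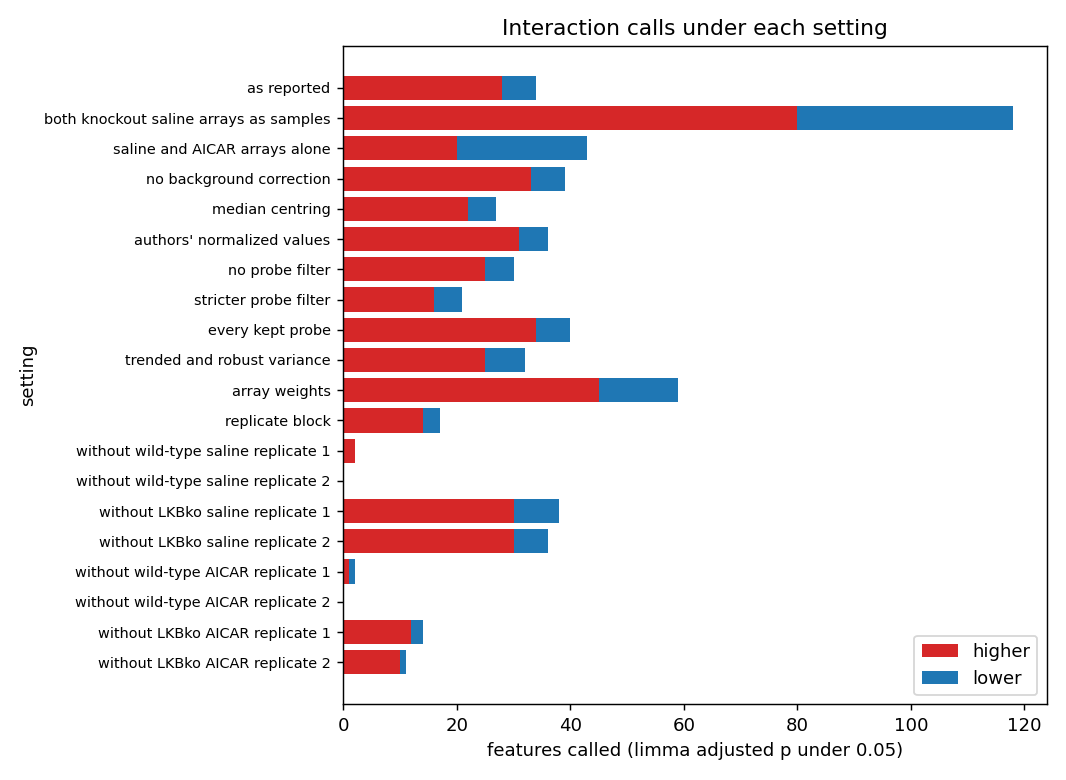
Number of features called for the interaction (x axis) under each setting (y axis), split into higher (red) and lower (blue) responses in LKBko. The reported fit gave 34, and the bars for fits without 1 wild-type array are at 0 to 2.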

How the data were processed

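Total RNA of mouse liver was labelled and hybridised to 1-colour Illumina arrays, per the labels' protocols. The deposited table gives the linear intensity of each of 25697 probes on 16 arrays and a detection p-value from the authors; a second deposited table holds the authors' normalized intensity (rank correlation with the first of 1 on each array, column medians 190.9 to 191.1), whose method and background treatment are not stated. The submitters' processing notes name GenomeStudio without a version.

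The analysis used limma 3.58.1 in R 4.3.3, with neqc background correction (offset 16), quantile normalization and a log2 transform. A probe was kept when at least 2 arrays detected it at p under 0.05 (15411 probes), and each gene was represented by its brightest probe. In the platform annotation 23978 probes had 1 symbol, 1719 none and 0 several. Group means of all 8 groups were fitted in 1 model (15 samples, the LKBko saline arrays averaged; 7 residual and 3.76 prior degrees of freedom), with two-sided p-values adjusted by Benjamini and Hochberg over 11338 features. The script was tested on simulated data.

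Genes were named by rule: the 15 highest and 15 lowest called interactions with a symbol, the smallest p-values up to 24 genes, up to 4 called members or else 2 members of each described list, and a set including Stk11. The members and lists were chosen with earlier results of these data known. Named outside this rule, and so after their values were seen, were also Hspa5, Atf3, Myc, Cry2, Arntl and Maff. The same holds for Klf4, Zfp36, Ccnl1, Adk, Slc29a1, Pf4, Ppbp, Rbp4, Ttr and Apoa1. Same-numbered arrays showed little common deviation (correlations -0.13 to 0.04). With so few arrays per group, these correlations cannot show whether the numbers pair samples. Those that involve LKBko saline also rest on arrays that did not differ beyond noise. A replicate block gave 17 interaction calls, against 34 in the reported fit. Alternatives were both LKBko saline arrays as samples, the 8 arrays alone, other normalizations, filters and probes, trended variance, array weights, a replicate block and leaving out each array. Array number limits the precision of every value.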

Additional observations from a re-analysis of the deposited data

Results flagged for a closer look

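Each of the 34 called features differed between the genotypes in its response to AICAR by the limma test of that difference, which is what marks them here. On the log2 scale, the response in LKBko minus that in the wild-type was 5.05 for Serpina4-ps1, 3.97 for Epha2, 3.60 for Ampd1, 3.53 for Dusp8, 3.50 for Gp5, 3.39 for Pvr, 3.22 for Gzmm and 3.13 for ILMN_1223299. It was 2.92 for Nfil3, 2.82 for Dusp1, 2.79 for Cpeb2, 2.78 for Fosb, 2.71 for Bcl2l11, 2.67 for Fosl1 and 2.67 for Slc2a2. Smaller values were 2.56 for Aoc2, 2.40 for Siah2, 2.33 for Shd, 2.31 for ILMN_2602204, 2.22 for Nt5dc3, 2.04 for Reps1, 1.96 for Mycbpap, 1.92 for Zpr1, 1.92 for Cplx1, 1.90 for Epc1, 1.88 for Tph2, 1.76 for Zfp213 and 1.58 for Gpat3. The response was lower in LKBko by values of -5.51 for ILMN_2906728, -3.07 for Acnat2, -2.82 for Ube2u, -2.49 for Gspt2, -2.18 for Tmem102 and -2.10 for Hjurp.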

How the results depend on the processing

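The interaction count of 34 was 118 with both LKBko saline arrays as samples, 21 with the stricter probe filter, 59 with array weights and 17 with a replicate block, and 27 to 43 in the other settings. With the 8 arrays fitted alone it was 43, split into 20 higher and 23 lower, 16 of them shared. Leaving out 1 array gave 0 to 38 interaction calls, 54 to 159 for AICAR in LKBko, and 0 to 1 in the wild-type; such fits leave 1 sample in a group, assumed to vary like the others, and lose precision. Of the 34 calls, 9 passed in every one of the 11 other settings in which they were tested. These were Gp5, Ampd1, Nfil3, Gspt2, Epha2, Fosb, Reps1, ILMN_2602204 and ILMN_2906728. The LKBko count of 136 became 652 with both saline arrays as samples and was 168 with array weights. The wild-type count of 1 became 38 with the 8 arrays alone, 219 with array weights, 2 without background correction, 2 in the authors' values, 0 without a probe filter and 0 with the replicate block; a crossed pairing, chosen after seeing the data, gave 1. The AICAR minus CCl4 count of 0 became 10 with both saline arrays as samples, 8 without background correction and 8 in the authors' values. The cause of these shifts was not tested. Stk11 kept its call in all settings (-1.11 to -0.89). Of 2109 recomputed values of named genes 5 changed sign, all on leaving out 1 array. Over those fits Cyp17a1 ranged from -1.32 to 0.91 (0.91 and 0.11 without wild-type AICAR replicate 1 and LKBko AICAR replicate 2), Nnmt from -1.05 to 0.02 (the latter without replicate 2 of wild-type saline) and Ppargc1a from -0.60 to 1.63 (-0.60 and -0.01 without replicate 1 of wild-type saline and of wild-type AICAR).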

Other observations

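AICAR in LKBko livers also changed genes whose interaction was not called. These were named after their values were seen. Sgms2, an enzyme of sphingomyelin synthesis, rose by 3.31 (limma adjusted p = 0.0027; wild-type effect 0.96), Dot1l, a histone methyltransferase, rose by 2.75 (adjusted p = 0.0027; wild-type 0.87), and Chka, a choline kinase, rose by 2.65 (adjusted p = 0.0077; wild-type 1.39). Igf2, a growth factor, fell by 2.58 (adjusted p = 0.011; wild-type -0.42). Their interactions were 2.35, 1.88, 1.27 and -2.16, with adjusted p = 0.11, 0.13, 0.44 and 0.16. All 136 features called in LKBko had an interaction of the same sign, and 121 of them an unadjusted p under 0.05, although both comparisons share the LKBko samples.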
